A study of Mus musculus with 8 samples.

Results

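The genes described here are 10 immediate early and MAPK feedback genes: Dusp1, Dusp6, Zfp36, Junb, Jun, Fos, Egr1, Ier2, Ier3 and Myc. They were taken by name, with earlier results of these data known. Every probe that the array's annotation assigns to one of them was used, which gave 13 of the 25697 probes and 10 of the 16593 genes with a symbol. Of the 10 genes, 9 were tested, and Ier2 was not, because its probe was too dim to pass the filter. Background on an array was set at the 99th percentile of its probes for smell and pheromone receptors, sensory genes taken as silent in liver. Dusp1, Dusp6, Zfp36 and Junb were above background on all 8 arrays. Egr1 was above it on 7 arrays, Ier3 on 3 and Jun on 2, whereas Fos, Myc and Ier2 were above it on none.

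Immediate early genes are transcribed within minutes of a signal at the cell surface, without new protein synthesis, and most of their mRNAs decay again quickly. In liver they are known for their brief induction by growth factors, cytokines, partial hepatectomy and handling of the tissue. The EGF receptor, which erlotinib inhibits, signals through RAS, RAF and MEK to the kinase ERK, which drives several of them. Some of the products, such as the dual-specificity phosphatases, then switch the kinases off again.

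All mice were male A/J animals that received 0.1 cc by gavage 3 times per week for 18 weeks, and RNA came from frozen liver outside tumours. The groups were CCl4, a hepatotoxin, as a 40% solution in olive oil without erlotinib; CCl4 with erlotinib 2 mg; CCl4 with erlotinib 5 mg; and vehicle. Death came in week 19 by the protocol, which adds 1 week of washout, but in week 18 by the sample records. No slide, time of death or fasting state is given, and neither is what the erlotinib dose refers to or when it was dosed. Each group has 2 arrays, and the labels do not say that they are separate animals, so p-values measure only the spread between these arrays. The vehicle arrays carry title codes that begin with OO and all others codes that begin with CT, so that anything those codes mark cannot be told apart from CCl4.

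The array medians before normalization were 99.8 to 130 intensity units, and the 2 arrays of a group correlated at 0.984 to 0.988 over the genes tested. Of 8 listed hepatocyte markers 6 were tested, and all 6 were above background on every array. Their summed intensity was 47140 and 45760 in CCl4 livers, 43500 and 45670 with erlotinib 2 mg, 45020 and 47150 with 5 mg, and 52390 and 53820 in vehicle livers, and in CCl4 against vehicle 3 of the 6 fell and none rose (median -0.49). The summed intensity of the 4 of 9 listed macrophage markers that were tested was 1787 and 1924 in CCl4 livers, 1387 and 1013 with erlotinib 2 mg, 1053 and 1087 with 5 mg, and 668 and 687 in vehicle livers. In CCl4 against vehicle Cd14 rose by 3.16 and Lyz2 by 1.80, while the Kupffer cell markers Clec4f and Vsig4 were not called. Cd14 alone of these 4 was called lower against CCl4 (-2.69 with 2 mg and -2.91 with 5 mg), and the medians of the 4 were 0.002 and -0.13. That of 7 of 9 stellate cell markers was 1248 and 1714 in CCl4 livers, 1212 and 1259 with 2 mg, 940 and 1045 with 5 mg, and 783 and 815 in vehicle livers. Acta2 alone of these 7 was called lower against CCl4 (-1.63 with 2 mg and -2.29 with 5 mg), and the medians of the 7 were -0.06 and -0.08. Of 4 neutrophil markers S100a8, above background on 4 arrays, rose in CCl4 against vehicle (0.82, adjusted p = 0.00148; at least 1.25-fold). Mpo, Elane and Retnlg were under background on all arrays, as were both cholangiocyte markers tested, Sox9 and Cldn7. The part that cell composition plays in the differences of the 10 genes was not tested. In whole tissue, fewer cells of a type and less RNA per cell cannot be told apart.

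Levels are log2 normalized intensities, and a difference is the first group minus the second on that scale, with the standard error (SE) of limma's moderated fit. A gene was called at a Benjamini-Hochberg adjusted p under 0.05 over all 11022 genes tested. Of these, 4400 were under background on all arrays, and they count in the shares of all genes given below. With only probes above background on at least 2 arrays, 5498 genes were tested. Of those, 25.6% were called in CCl4 against vehicle, and 17.5% with 2 mg and 18.3% with 5 mg against CCl4. Against vehicle the shares were 5.89% with 2 mg and 3.27% with 5 mg. Groups of 2 arrays did not overlap for 32.9% to 48.6% of all genes, depending on the comparison, so a lack of overlap alone was common.

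Among the MAPK phosphatases, Dusp1 was highest with erlotinib 5 mg. Its protein is a nuclear phosphatase of p38, JNK and ERK. The probe ILMN_2622983 measured 7.09 and 7.34 in CCl4 livers, 6.91 and 7.08 with erlotinib 2 mg, 7.62 and 8.22 with erlotinib 5 mg, and 7.54 and 7.56 in vehicle livers. The 5 mg arrays stood above all other arrays, and both 2 mg arrays lay below both CCl4 arrays. Dusp1 rose by 0.71 ± 0.16 (SE), or 1.63-fold, with 5 mg against CCl4 (limma, adjusted p = 0.0086). Without the higher 5 mg array the difference was 0.41 with an adjusted p of 0.173, and without the lower CCl4 array the adjusted p was 0.0873; with the authors' normalized values it was 0.0567. The differences of CCl4 and of 2 mg from vehicle were -0.34 (adjusted p = 0.237) and -0.56 (adjusted p = 0.0776), and neither passed the threshold. The second was called when the 5 mg arrays were reduced by 1 (adjusted p = 0.0263 and 0.0246) or only the compared arrays were fitted (adjusted p = 0.0185).

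Dusp6, the cytoplasmic phosphatase of ERK, was set apart by a single array. The probe ILMN_2925711 measured 8.23 and 9.63 in CCl4 livers, 7.97 and 8.18 with erlotinib 2 mg, 8.19 and 8.33 with 5 mg, and 8.46 and 8.49 in vehicle livers. One CCl4 array was higher than every other array, while the other CCl4 array lay within the range of the erlotinib and vehicle arrays. No comparison of Dusp6 passed the threshold; the lowest adjusted p was 0.0696, for 2 mg against CCl4, with a difference of -0.85 ± 0.28. Without the lower CCl4 array that difference was -1.56 (adjusted p = 8.64e-06), and Dusp6 was then also called against CCl4 at 5 mg and in CCl4 against vehicle. Without the higher one, CCl4 minus vehicle was -0.24 in place of 0.46. The second probe of the gene, ILMN_2701321, was above background on 1 vehicle array, and the third, ILMN_1248537, on none; at 6.26 and 6.23 in CCl4 livers, the second did not show the high array.

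Zfp36 was lower in CCl4 livers than in vehicle livers, and less so with erlotinib 5 mg. It encodes tristetraprolin, which binds AU-rich elements in the mRNAs of cytokines and immediate early genes and speeds their decay. The probe ILMN_3162407 measured 8.52 and 8.69 in CCl4 livers, 8.32 and 8.41 with erlotinib 2 mg, 9.05 and 9.09 with 5 mg, and 9.27 and 9.42 in vehicle livers. The 4 groups occupied separate ranges, with 2 mg the lowest and vehicle the highest. Zfp36 fell by 0.75 on the log2 scale, or 1.68-fold, in CCl4 against vehicle (SE 0.12; limma, adjusted p = 0.000271). With 2 mg it fell by 0.98 against vehicle (adjusted p = 0.000106), while 2 mg minus CCl4 was -0.24 (adjusted p = 0.317). With 5 mg it rose by 0.47 ± 0.12 against CCl4 (adjusted p = 0.0164), a call that was lost without the lower CCl4 array (adjusted p = 0.134) or without either 5 mg array (adjusted p = 0.105 and 0.0798). The difference of 5 mg from vehicle was -0.28, with a 95% interval of -0.53 to -0.03 and an adjusted p of 0.379.

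Of the AP-1 subunits, Junb changed and Jun and Fos were at or under background. AP-1 is the dimer of JUN and FOS proteins that many growth signals act through, and JUNB is a JUN protein that can restrain proliferation. The Junb probe ILMN_1220034 measured 7.19 and 7.40 in CCl4 livers, 7.22 and 7.30 with erlotinib 2 mg, 7.82 and 7.89 with 5 mg, and 6.66 and 6.82 in vehicle livers. Both vehicle arrays were the lowest and both 5 mg arrays the highest, while the CCl4 and 2 mg arrays overlapped. Junb rose by 0.55 ± 0.12 in CCl4 against vehicle (adjusted p = 0.00428), by 0.52 with 2 mg against vehicle (adjusted p = 0.0237) and by 1.11 ± 0.12, or 2.17-fold, with 5 mg against vehicle (adjusted p = 4.51e-05). It also rose by 0.56 ± 0.12 with 5 mg against CCl4 (adjusted p = 0.00544), and 2 mg minus CCl4 was -0.03, with a 95% interval of -0.29 to 0.22. Without the higher CCl4 array, or the lower vehicle array, the difference between CCl4 and vehicle had an adjusted p of 0.0695 or 0.0712. Without the lower CCl4 array, or the higher 5 mg array, that between 5 mg and CCl4 had one of 0.0656 or 0.0603. The call of 2 mg against vehicle was lost without any 1 of the 4 arrays compared (adjusted p 0.0671 to 0.274).

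Jun measured 6.37 and 6.41 in CCl4 livers, 6.31 and 6.34 with erlotinib 2 mg, 6.40 and 6.18 with 5 mg, and 6.42 and 6.05 in vehicle livers. It was above background on 1 CCl4 array and 1 array at 5 mg, and the groups overlapped except 2 mg with CCl4. Fos lay between 5.86 and 6.31 on all arrays, under background on each. No comparison of Jun or Fos passed the threshold, and their levels near background do not show that they did not differ.

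Egr1, a zinc-finger transcription factor driven by ERK, measured 6.45 and 6.59 in CCl4 livers, 6.66 and 6.85 with erlotinib 2 mg, 6.83 and 7.02 with 5 mg, and 6.41 and 6.56 in vehicle livers. One vehicle array was under background. The 5 mg arrays lay above all CCl4 and vehicle arrays and overlapped those of 2 mg. With 5 mg the difference was 0.41 ± 0.12 from CCl4 (limma, adjusted p = 0.0516) and 0.44 ± 0.12 from vehicle (adjusted p = 0.0957), and neither passed the threshold. The first was called when only probes above background on at least 2 arrays were tested (adjusted p = 0.0481) or the probes of each gene were averaged.

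Ier3 was highest in CCl4 livers. Its product, also called IEX-1, is a stress-inducible protein that affects cell survival. The probe ILMN_1216764 measured 6.70 and 6.95 in CCl4 livers, 6.29 and 6.56 with erlotinib 2 mg, 6.27 and 6.36 with 5 mg, and 6.07 and 6.13 in vehicle livers. It was above background on both CCl4 arrays and 1 array at 2 mg and on no 5 mg or vehicle array. Ier3 rose by 0.73 ± 0.13 in CCl4 against vehicle (adjusted p = 0.000789), at least 1.32-fold when vehicle is set at the background limit. It fell by 0.51 on the log2 scale with 5 mg against CCl4 (SE 0.13; adjusted p = 0.0164), at least 1.35-fold lower by the same limit. That call was lost without the higher CCl4 array (-0.38, adjusted p = 0.225) or either 5 mg array (adjusted p = 0.0626 and 0.131). With 2 mg the difference from CCl4 was -0.40 ± 0.13 (adjusted p = 0.0696), and it was called without the lower CCl4 array (adjusted p = 0.0458).

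Ier2, a nuclear immediate early protein, lay between 5.88 and 6.13 and under background on each array. Myc, the transcription factor that drives growth and ribosome synthesis, was under background on all arrays with both probes. Its brighter probe, ILMN_2623526, measured 6.18 and 6.32 in CCl4 livers, 5.88 and 6.004 with erlotinib 2 mg, 6.21 and 6.21 with 5 mg, and 6.12 and 6.18 in vehicle livers. The 2 mg arrays were the lowest, but the difference from CCl4 of -0.30 ± 0.12 did not pass the threshold (adjusted p = 0.133) and lies within the range under background. The second probe, ILMN_1231123, gave 0.11 for the same comparison in a fit of all probes (adjusted p = 0.887), so the probes did not have the same sign.

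**Figure D1:**
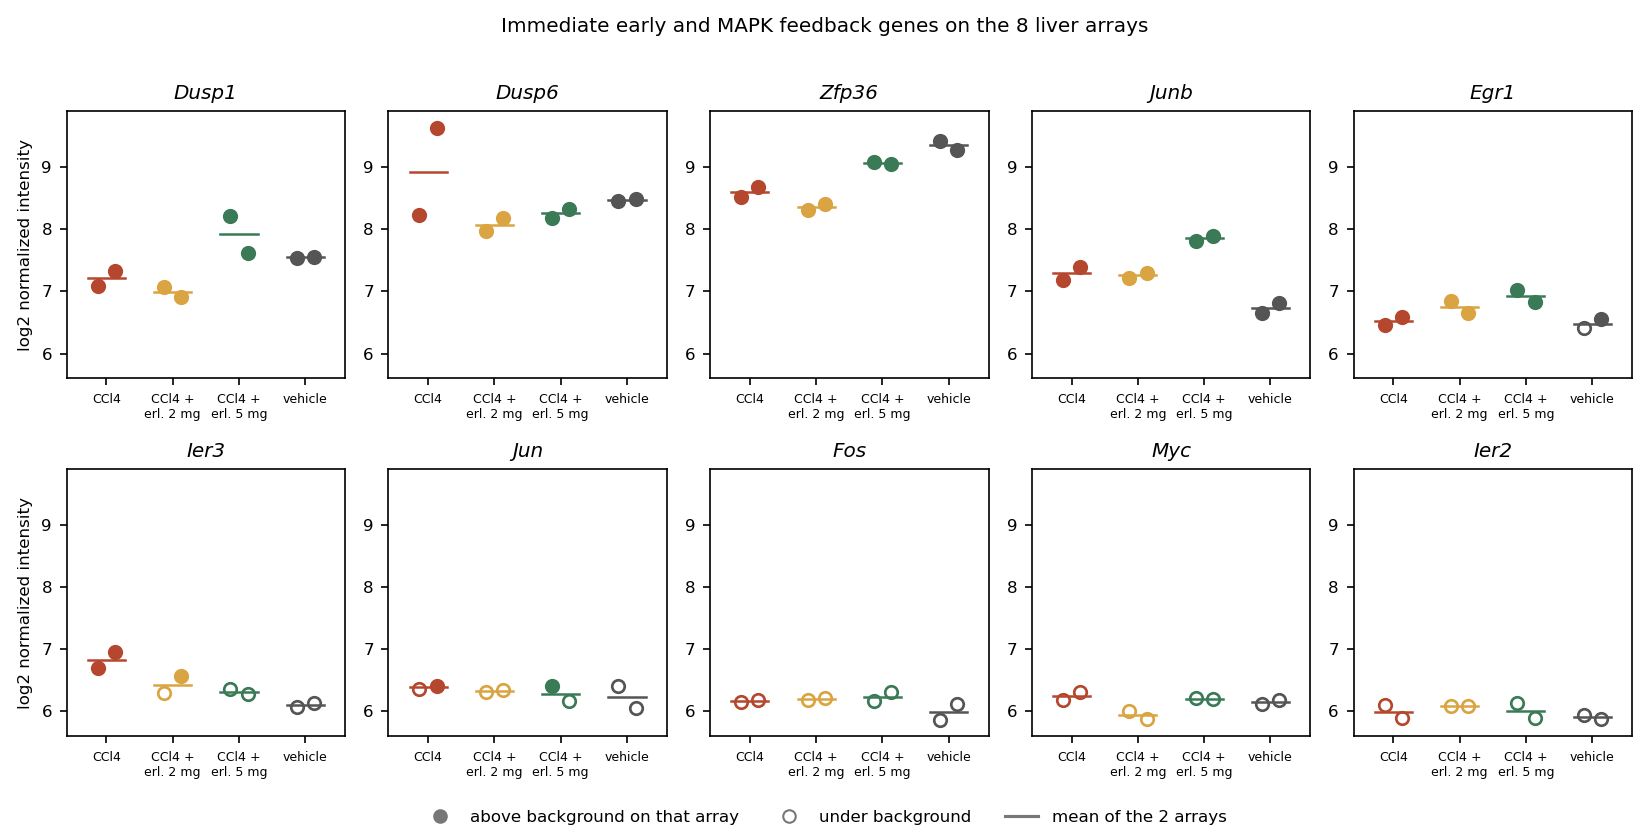
Log2 normalized intensity (y axis) of the probe that represents each of the 10 genes, by group (x axis), with 1 point per array, filled where the array was above background, and a bar at the mean of the 2 arrays. Dusp1 and Junb were highest on the 5 mg arrays, Zfp36 on the vehicle arrays and Ier3 on the CCl4 arrays, and Dusp6 had 1 high CCl4 array at 9.63.

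Promoter sequence from RefSeq (build GRCm38.p6, strain C57BL/6J) was searched for 7 of the 10 genes. No entry was available for Ier2 and Myc, and Egr1 was left out of the search. The 250 bases before the annotated start were searched for elements through which immediate early genes are classically induced. The promoters of Dusp1, Zfp36 and Junb are shown because these genes were the highest-ranked of the 10 between the erlotinib doses, and that of Ier3 because it changed in the other direction against CCl4. Each is written 5′ to 3′ on the strand of the gene, with matches to any of the motifs searched in capitals.
Dusp1, chr17:26508473-26508722, minus strand: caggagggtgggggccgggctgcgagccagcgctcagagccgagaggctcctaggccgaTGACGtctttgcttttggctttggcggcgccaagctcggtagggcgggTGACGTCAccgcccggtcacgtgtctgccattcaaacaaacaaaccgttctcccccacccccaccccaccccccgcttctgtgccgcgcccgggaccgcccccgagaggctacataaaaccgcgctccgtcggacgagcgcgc
Zfp36, chr7:28379229-28379478, minus strand: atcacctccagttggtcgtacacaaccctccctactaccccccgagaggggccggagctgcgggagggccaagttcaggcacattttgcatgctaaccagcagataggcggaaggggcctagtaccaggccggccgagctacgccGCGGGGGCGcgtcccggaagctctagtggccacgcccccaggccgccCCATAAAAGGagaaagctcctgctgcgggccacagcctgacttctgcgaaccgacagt
Junb, chr8:84978749-84978998, minus strand: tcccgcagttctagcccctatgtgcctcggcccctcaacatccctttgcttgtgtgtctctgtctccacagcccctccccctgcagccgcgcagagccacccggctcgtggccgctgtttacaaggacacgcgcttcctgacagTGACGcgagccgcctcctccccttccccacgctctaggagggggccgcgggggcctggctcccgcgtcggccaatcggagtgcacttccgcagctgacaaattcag
Ier3, chr17:35821463-35821712, plus strand: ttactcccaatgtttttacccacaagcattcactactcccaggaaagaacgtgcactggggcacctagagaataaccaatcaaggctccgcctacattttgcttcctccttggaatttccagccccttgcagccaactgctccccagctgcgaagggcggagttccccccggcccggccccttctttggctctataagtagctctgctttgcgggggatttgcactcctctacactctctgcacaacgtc

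The full cAMP response element TGACGTCA, searched on both strands, lay in the Dusp1 promoter 143 to 136 bases before the start and in 1.55% of all 32851 promoters. The short form TGACG, on both strands and counted also within the full element, was in 3 of the 7 promoters, those of Dusp1, Junb and Fos, and in 17.8% of all. The CArG box, the element of serum response factor, was in Zfp36 alone of the 7, 58 to 49 bases before the start, and in 1.47% of all. The EGR site GCGNGGGCG, on both strands, was likewise in Zfp36 alone, 105 to 97 bases before the start, and in 4.7% of all. The AP-1 site TGANTCA, on both strands, was in 0 of the 7 and in 6.75% of all, and TATAAA, on the strand of the gene, was in Fos alone and in 7.59% of all. Dusp1, Zfp36 and Junb thus had no single one of these motifs in common in this window, and the Ier3 window held none of them. A match describes the letters of the window and was not tested as a binding site. Bases outside the window and the promoter of Egr1 were not searched, so the counts do not show that a gene lacks an element.

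CCl4 against vehicle asks what differed in the liver after 18 weeks of CCl4. Junb and Ier3 rose and Zfp36 fell, so 3 of the 9 genes tested were called, where 12.7% of all genes tested were (6.74% higher and 5.92% lower). The median difference of the 9 genes was 0.15, against -0.002 for all genes. Dusp1, Dusp6, Egr1, Jun, Fos and Myc did not pass the threshold, with differences of -0.34 for Dusp1 and 0.04 to 0.46 for the others. With median scaling of the arrays in place of quantile normalization, Ier3 alone was called.

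Erlotinib 2 mg against CCl4 gave no called member: 0 of 9, where 8.57% of all genes were called. Dusp6, Ier3 and Myc, and 1991 of all 11022 genes, had an unadjusted p under 0.05, these 3 all lower with 2 mg, and Zfp36 and Dusp1 were lower by 0.24 and 0.22 without reaching it. The median difference of the 9 genes was -0.22, against -0.001 for all genes.

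Erlotinib 5 mg against CCl4 called 4 of the 9 genes: Dusp1, Zfp36 and Junb rose and Ier3 fell. Of all genes tested 9.1% were called, 4.42% higher and 4.68% lower. The differences of the first 3 genes, 0.47 to 0.71, correspond to 1.38-fold to 1.63-fold. Both erlotinib comparisons share the CCl4 arrays, which also enter CCl4 against vehicle. Leaving out 1 array at a time left 1 to 4 of the 9 called, and median scaling left 0.

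**Figure D2:**
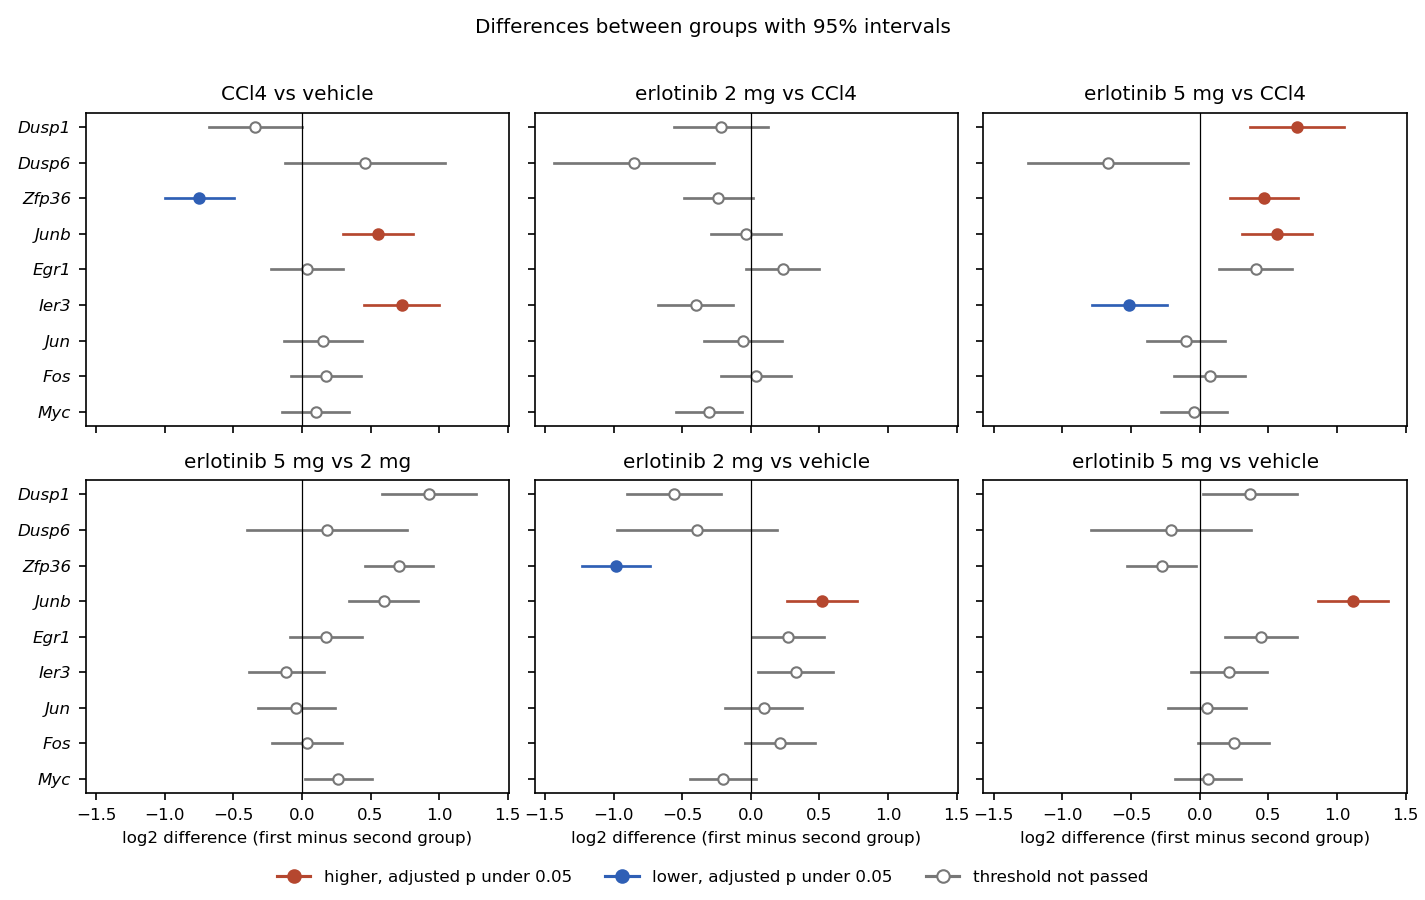
Log2 difference (x axis) with its 95% interval for the 9 genes tested (y axis) in each of the 6 comparisons, first named group minus second, filled and coloured where the adjusted p was under 0.05. Dusp1, Zfp36 and Junb stand to the right in the comparison of 5 mg with CCl4 and in that of 5 mg with 2 mg, where none of them passed the threshold.

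The doses were compared with each other directly. Dusp1 was 0.93 ± 0.16 higher with 5 mg than with 2 mg (95% interval 0.58 to 1.27), Zfp36 0.71 ± 0.12 higher (0.46 to 0.95) and Junb 0.59 ± 0.12 higher (0.34 to 0.85). In each of these genes both 5 mg arrays lay above both 2 mg arrays. By limma p-value Zfp36 ranked 3, Dusp1 ranked 5 and Junb ranked 10 of 11022 genes, yet none passed the threshold, with adjusted p-values of 0.0667, 0.0667 and 0.149. The 10 genes were chosen with earlier results of these data known, so the ranks and counts only describe. In this comparison 0 of 9 members and 0.0181% of all genes were called, which is 2 genes, Acot1 and Cyp4a31, both of fatty acid metabolism and both higher with 5 mg. At an unadjusted p under 0.05 there were 4 of the 9 members, with Myc the other one, and 503 of all genes. Dusp1 and Zfp36 were called when no filter on dim probes was set (adjusted p = 0.0465 for each), and Dusp1 alone with an intensity trend and robust prior (adjusted p = 0.0231) or without the lower 5 mg array (adjusted p = 0.0134). The other members had differences of -0.11 to 0.26, and Ier3, at -0.11, had a 95% interval of -0.39 to 0.16.

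**Figure D3:**
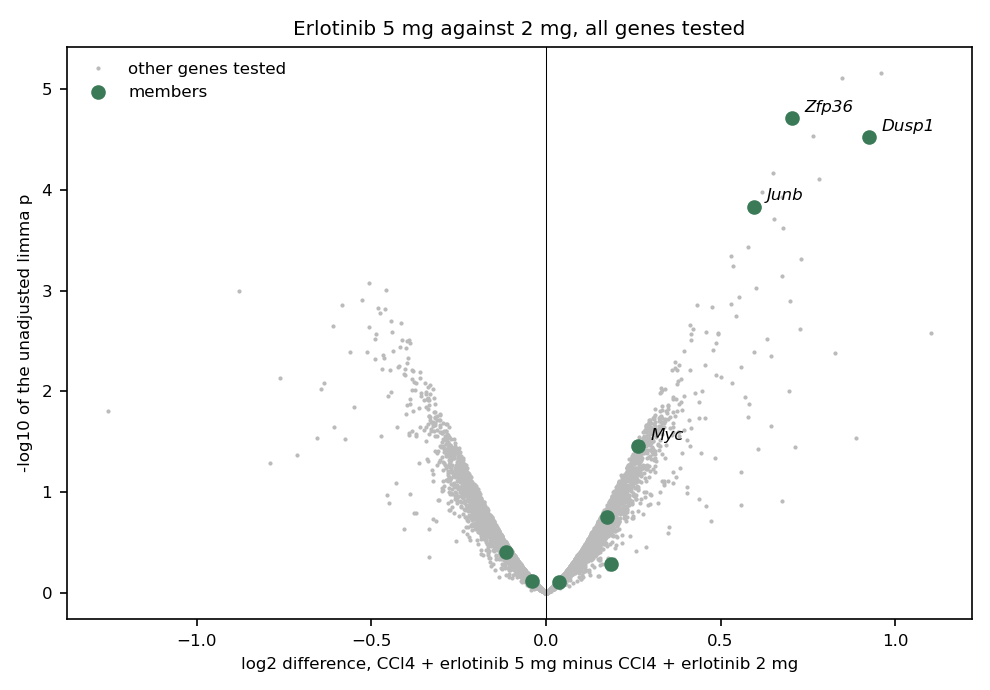
Log2 difference between erlotinib 5 mg and erlotinib 2 mg (x axis) against -log10 of the unadjusted limma p (y axis) for the 11022 genes tested, with the 9 members as large points. Zfp36, Dusp1 and Junb lie at the upper right, at ranks 3, 5 and 10, and Myc is the next member.

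Against vehicle, 2 mg called 2 of the 9 genes, Junb higher and Zfp36 lower, where 3.1% of all genes were called (1.7% higher and 1.41% lower). With 5 mg 1 of 9 was called, Junb, which was higher, where 1.9% of all genes were called and 1.17% were higher. Junb thus passed the threshold in each of the 3 comparisons with vehicle, which share the vehicle arrays; with median scaling it passed in 0 of them. For Zfp36 the 2 doses gave -0.98 and -0.28 against the same vehicle arrays, and for Dusp1 they gave -0.56 and 0.37; the difference between the doses is the comparison above and did not pass the threshold.

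The other genes of the pathway were counted in the same fit. Of 44 other immediate early genes 29 were tested, 9 of them above background on all arrays. In CCl4 against vehicle 4 rose and 1 fell, with a median of 0.12, where 12.7% of all genes were called. Among them Ccn2, a matrix-associated growth regulator, rose by 1.27 ± 0.21 (limma, adjusted p = 0.000447) and Gadd45a, a DNA damage gene, by 0.96 (adjusted p = 2.41e-05, at least 1.63-fold). Socs2 fell by 0.76 (adjusted p = 0.00566). That call was lost without the second CCl4 array, without the first vehicle array, with median scaling and with the authors' values. With erlotinib 2 mg against CCl4 none rose and 5 fell, where 8.57% of all genes were called, including Nfil3 (-1.05, adjusted p = 0.000866) and Gadd45g (-0.98, adjusted p = 0.000723). With 5 mg against CCl4 none rose and 3 fell, where 9.1% of all genes were called, including Ccn2 (-1.25, adjusted p = 0.00079) and Atf3, a stress-induced transcription factor (-0.84, adjusted p = 0.00135; at least 1.49-fold lower). Between the doses 0 of the 29 were called by limma, where 0.0181% of all genes were. At an unadjusted p under 0.05 there were 8 of the 29 and 503 of all 11022 genes. Of these 8, 7 were higher with 5 mg, and the median over the 29 was 0.05. Median scaling left 2 risen in CCl4 against vehicle, 3 fallen with 2 mg and 1 fallen with 5 mg. Against vehicle, 2 mg called none higher and 3 lower, where 3.1% of all genes were called. With 5 mg 2 were called higher and 1 lower, where 1.9% of all genes were called. The 3 calls were lost without the first vehicle array, and the 2 without either vehicle array.

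Ccn2 had the largest called difference of these genes in CCl4 against vehicle. It measured 8.41 and 9.32 in CCl4 livers, 8.07 and 8.42 with erlotinib 2 mg, 7.46 and 7.76 with 5 mg, and 7.57 and 7.63 in vehicle livers. The CCl4 arrays were above vehicle, and the 5 mg arrays lay around the vehicle arrays. With median scaling its calls in CCl4 against vehicle and in 5 mg against CCl4 were lost (limma, adjusted p = 0.0941 and 0.164).

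Of the other MAPK phosphatases and feedback inhibitors, 14 of 25 were tested. In CCl4 against vehicle and between the doses 0 of the 14 were called by limma, where 12.7% and 0.0181% of all genes were. At an unadjusted p under 0.05 there were 3 and 0 of the 14, and 2374 and 503 of all 11022 genes. Dusp16, a phosphatase of JNK and p38, was the only one called against CCl4, where 8.57% of all genes were called with 2 mg and 9.1% with 5 mg. Dusp16 fell with both doses (limma, -0.83, adjusted p = 0.000847 with 2 mg and -0.56, adjusted p = 0.0161 with 5 mg). Its levels were 8.35 and 8.73 in CCl4 livers, 7.69 and 7.72 with 2 mg, 7.87 and 8.09 with 5 mg, and 8.13 and 8.34 in vehicle livers. The call with 5 mg was lost without the second CCl4 array or the first 5 mg array, and both calls were lost with median scaling. Between 2 mg and vehicle 1 of the 14 was called higher and 1 lower, where 3.1% of all genes were called. Errfi1, an inhibitor of the EGF receptor kinase that the receptor itself induces, differed by -0.78 there (limma, adjusted p = 0.0232), and Dusp8 by 0.49 (adjusted p = 0.0469, at least 1.12-fold). Neither was called without either vehicle array, without the first 2 mg array, with median scaling or with the authors' values.

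In the cascade from the EGF receptor to ERK, 18 of 31 genes were tested, and 9 of them were above background on all arrays. In each comparison but that of the doses 1 rose and 1 fell. Of all genes 12.7% were called in CCl4 against vehicle, and 8.57% with 2 mg and 9.1% with 5 mg against CCl4. Against vehicle 3.1% of all genes were called with 2 mg and 1.9% with 5 mg. Median scaling called 0 of the 18 in all 6 comparisons. Between the doses 0 were called by limma and 1 had an unadjusted p under 0.05. Egfr fell by 1.34 in CCl4 against vehicle (SE 0.24; adjusted p = 0.000883) and was also lower than vehicle with 2 mg (-0.93, adjusted p = 0.0452) and with 5 mg (-1.54, adjusted p = 0.00179). The call with 2 mg was lost without either vehicle array, the first 2 mg array or either 5 mg array, and that with 5 mg without the first vehicle array. Both of these calls were also lost with the authors' values (limma, adjusted p = 0.184 with 2 mg and 0.0717 with 5 mg). Mknk1 and Mknk2, kinases that ERK activates and that phosphorylate a translation initiation factor, moved apart. Mknk1 rose in CCl4 against vehicle (0.61, limma adjusted p = 0.00099). Against CCl4 it fell with 2 mg (-0.55, adjusted p = 0.00331) and with 5 mg (-0.40, adjusted p = 0.0282). Mknk2 rose against CCl4 with 2 mg (0.84, adjusted p = 0.000312) and with 5 mg (0.59, adjusted p = 0.00498). Against CCl4, the Mknk1 call with 5 mg was lost without any 1 of the 4 arrays compared, and that of Mknk2 without the first 5 mg array. Of 13 genes of the JNK and p38 cascade, 7 that bind AU-rich mRNA, as Zfp36 does, and 5 partners of MYC, 0 were called in any of the 6 comparisons by limma. At an unadjusted p under 0.05 there were at most 2, 1 and 1 in a comparison.

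Myc itself was under background, but 12 of 20 listed targets of MYC were tested, and none of the 12 was under background on all arrays. In CCl4 against vehicle 7 of them rose with none lower. There 12.7% of all genes were called, and 25.6% of those above background on at least 2 arrays. With 2 mg and with 5 mg, 7 fell against CCl4 and none rose. There 8.57% and 9.1% of all genes were called, and 17.5% and 18.3% of those above background on at least 2 arrays. Against vehicle 0 of the 12 were called at either dose, with 2 at an unadjusted p under 0.05 for each. The medians were 0.42 for CCl4 against vehicle, -0.54 for 2 mg and -0.58 for 5 mg against CCl4, where the medians of all genes were -0.002, -0.001 and -0.001. Srm, the spermidine synthase, measured 9.35 and 9.66 in CCl4 livers, 7.61 and 7.86 with 2 mg, 7.14 and 7.69 with 5 mg, and 7.68 and 7.79 in vehicle livers. Both CCl4 arrays stood far above all others. Srm rose by 1.77 ± 0.16 in CCl4 against vehicle (adjusted p = 1.29e-06), and Odc1, which makes the polyamine precursor putrescine, rose by 1.32 ± 0.14 (adjusted p = 5.04e-06). With 5 mg against CCl4 they fell by 2.09 and 1.28 on the log2 scale (adjusted p = 9.13e-07 and 1.89e-05). The 7 in CCl4 against vehicle became 4 without either vehicle array; the 7 with 2 mg became 3 without the second CCl4 array and 4 without the first 2 mg array; the 7 with 5 mg became 4 without the second CCl4 array or the first 5 mg array. Median scaling left 2, 1 and 2. These comparisons share the CCl4 arrays.

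**Figure D4:**
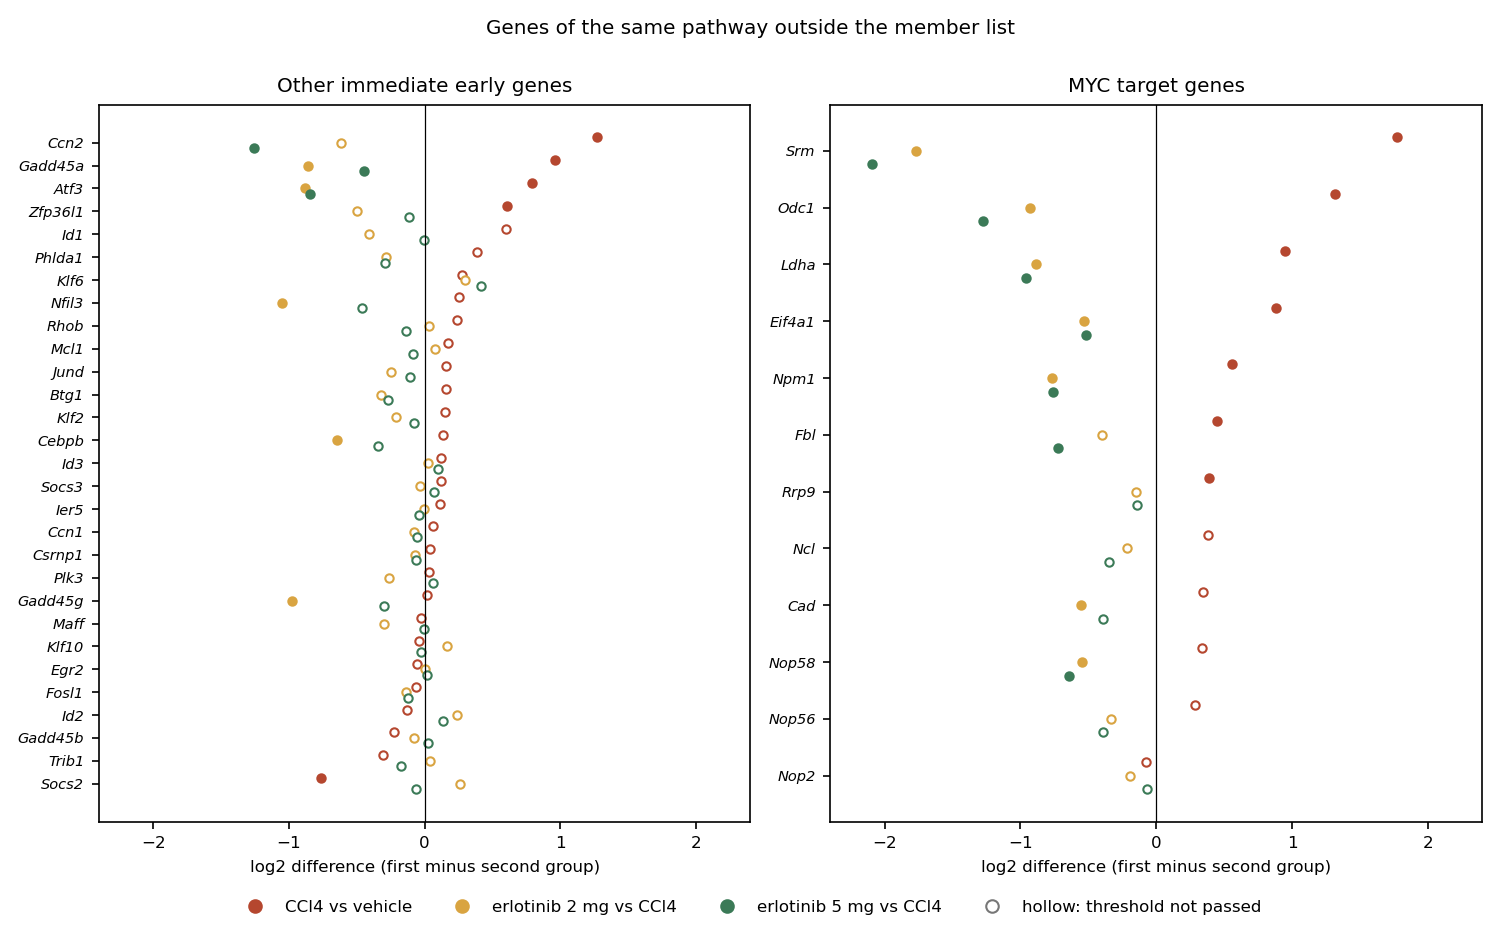
Log2 differences (x axis) of 29 other immediate early genes and 12 MYC targets (y axes, ordered by the difference of CCl4 from vehicle) for CCl4 against vehicle, erlotinib 2 mg against CCl4 and 5 mg against CCl4, filled where the adjusted p was under 0.05. No filled erlotinib point of either list lies to the right of 0; 7 MYC targets fell with each dose.

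Genes that follow the time of day, glucocorticoids and handling also differed between groups, and their part in the differences of the 10 genes was not tested. Dbp, a clock output gene, measured 6.39 and 6.21 in CCl4 livers, 7.85 and 10.4 with erlotinib 2 mg, 9.42 and 8.74 with 5 mg, and 8.50 and 7.84 in vehicle livers. It was lowest on the CCl4 arrays, and Nr1d1, a clock repressor, fell by 1.11 in CCl4 against vehicle (adjusted p = 6.55e-06) and rose by 1.32 with 2 mg and 1.66 with 5 mg against CCl4 (adjusted p = 4.58e-06 and 6.16e-07). Of 13 clock genes tested 3 fell in CCl4 against vehicle, 2 rose with each dose against CCl4 and 0 were called between the doses (1 at an unadjusted p under 0.05), and Per1 differed by 0.08 there (adjusted p = 0.996). The 3 became 1 without either CCl4 array or the first vehicle array and 6 without either 2 mg array, and the 2 with 2 mg became 5 without the first 2 mg array. Of all genes 12.7% were called in CCl4 against vehicle, 8.57% with 2 mg and 9.1% with 5 mg against CCl4. Tsc22d3, a gene that glucocorticoids induce, measured 7.59 and 8.14 in CCl4 livers, 7.34 and 7.88 with 2 mg, 8.08 and 8.44 with 5 mg, and 8.54 and 8.82 in vehicle livers. Its groups had the same order of means as those of Zfp36; it fell by 0.81 in CCl4 against vehicle (adjusted p = 0.0086), a call lost without the first CCl4 array, without the second vehicle array, with median scaling and with the authors' values. Its difference between the doses, 0.64, did not pass the threshold (adjusted p = 0.748). Of 10 glucocorticoid responsive genes tested 3 rose and 1 fell in CCl4 against vehicle, 2 fell with each dose against CCl4, and 0 were called between the doses, with 3 at an unadjusted p under 0.05. The 1 fallen became 0 without the first CCl4 array or the second vehicle array and 3 without either 2 mg array, and the 2 with 5 mg became 1 without the second CCl4 array. The median of the 10 between the doses was 0.23, and 0.088 without the first 2 mg array and 0.149 without the second 5 mg array. Fkbp5, also induced by glucocorticoids, differed by 0.16 between the doses (adjusted p = 0.996). Of 9 heat shock genes tested 2 were called higher in CCl4 against vehicle, and 2 with 2 mg and 3 with 5 mg lower against CCl4, with Hspa8 at -0.61 (adjusted p = 0.0235) with 5 mg. Each of these 3 counts became 0 with median scaling and without the second CCl4 array, the first also without the first vehicle array, the count with 2 mg without the first 2 mg array and that with 5 mg without either 5 mg array. Between the doses 0 of them were called by limma and 1 had an unadjusted p under 0.05. Hspa1a and Hspa1b were not among the genes tested.

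Among 3659 other genes above background on all 8 arrays, those most like each member were found by Pearson correlation over the 8 arrays, which share groups, so the values only describe. For Zfp36 they were Pfkm (0.965), Itih1 (0.961) and Ldah (0.959), and for Junb Npepl1 (0.972), Ambp (0.923) and Rhou (0.887). Pfkm, the muscle phosphofructokinase, measured 6.81 and 6.94 in CCl4 livers, 6.65 and 6.81 with erlotinib 2 mg, 7.03 and 7.19 with 5 mg, and 7.27 and 7.28 in vehicle livers, the order of means of Zfp36. For Dusp1 they were Srrm2 (0.884), Mov10 (0.876) and Noa1 (0.861). For Dusp6 they were Rnu6 (0.992), Ddx17 (0.963) and Cct4 (0.962), all high on the CCl4 array on which Dusp6 was high: Rnu6, a small nuclear RNA, measured 8.70 and 9.48 in CCl4 livers and 8.45 to 8.78 on the other arrays.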

How the data were processed

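Expression was measured on Illumina mouse BeadArrays, 8 in all, 2 per group per the labels. One deposited table gives probe intensity on a linear scale, not normalized, and a second deposited table gives intensity values normalized by the authors by a method not given in the sources used here. Per the labels' protocols, RNA was extracted with TRIzol and labelled with Cy5. The intensities were corrected with normexp (offset 50), quantile normalized and turned into log2 values with limma (version 3.58.1, in R 4.3.3). Probes over the 40th percentile of mean log2 intensity were kept (15418), and the brightest one stood for each gene. The files hold no detection p-value, so background on an array was the 99th percentile of 1326 odorant, vomeronasal and trace amine receptor probes; where all arrays of a group were under it, a fold is a lower bound against that limit. Probes were named from the platform annotation, updated to current symbols. One limma model (lmFit, eBayes) of the 4 groups gave 6 comparisons, with 4 residual and 11.9 prior degrees of freedom. Of 548 receptor genes tested 5 were called in CCl4 against vehicle, 2 in erlotinib 2 mg against CCl4 and 0 in the others. The fit was tested on simulated data.

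The 10 genes and all gene lists were chosen with earlier results of these data known. Besides the 10 genes, the genes named are up to 4 called genes per list and comparison with the largest differences, fixed clock, glucocorticoid and handling markers, and the 3 genes most correlated with each member above background on all arrays. Acot1 and Cyp4a31 were named after their values were seen. Replicates are numbered in record order, which pairs no arrays. The number of arrays limits the precision. The alternatives were no background correction, median scaling, the authors' values, other filters on dim probes, a mean over the probes of each gene, an intensity trend with robust prior, only the compared arrays, array weights and leaving out each array. For the lists, median scaling, the authors' values and left-out arrays were chosen after seeing the data.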

Additional observations from a re-analysis of the deposited data

How the results depend on the processing

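Of the 906 values recomputed under an alternative, 852 kept their direction and their side of the threshold, and no called difference of a member changed sign. The 906 include differences that were not called and settings that left out an array not compared. In 26 of them a called difference lost its call. Median scaling left 1 member called in CCl4 against vehicle (Ier3, in place of 3), 0 in erlotinib 5 mg against CCl4 (in place of 4), 0 in 2 mg against vehicle (in place of 2) and 0 in 5 mg against vehicle (in place of 1). It also lowered the calls over all genes, to 481 in CCl4 against vehicle, 157 and 169 for 2 mg and 5 mg against CCl4, 43 and 34 for 2 mg and 5 mg against vehicle and 0 between the doses; the main counts were 1396, 945, 1003, 342, 209 and 2. The higher share of called genes was then 37.6% in place of 48.5% for 2 mg against CCl4 and 69.8% in place of 54.7% for 2 mg against vehicle, and the cause was not tested. Between the doses, no filter on dim probes called 2 members and 5 genes in all, and an intensity trend with robust prior called 1 member and 4 genes. Like median scaling, these settings called 0 genes there: no background correction, the authors' values, only probes above background on at least 2 arrays, a mean over probes and only the compared arrays. The authors' values called 106 genes in 5 mg against vehicle. Leaving out 1 array, which reduces the arrays compared, gave 2 to 4 members in CCl4 against vehicle, 0 to 2 in 2 mg against CCl4, 1 to 4 in 5 mg against CCl4, 0 to 1 between the doses, 1 to 3 in 2 mg against vehicle and 1 in 5 mg against vehicle. Over all genes the calls in these comparisons, in the same order, were 926 to 1375, 519 to 933, 528 to 992, 0 to 7, 138 to 373 and 79 to 243. Differences that were not called and changed sign when 1 array was left out ranged, for Dusp6, from -0.24 to 1.17 in CCl4 against vehicle and -1.38 to 0.030 in 5 mg against CCl4. Jun ranged from -0.031 to 0.33 in CCl4 against vehicle, -0.21 to 0.015 in 5 mg against CCl4, -0.15 to 0.073 between the doses, -0.09 to 0.27 in 2 mg and -0.13 to 0.23 in 5 mg against vehicle. Junb ranged from -0.14 to 0.072 in 2 mg against CCl4, Fos from -0.034 to 0.11 between the doses, Egr1 from -0.034 to 0.11 in CCl4 against vehicle, Ier3 from -0.26 to 0.022 between the doses and Myc from -0.11 to 0.029 in 5 mg against CCl4. Fos, Myc and Ier2 were under background on all arrays, so differences in them could not be measured. No paired analysis was possible because the labels give the arrays no shared replicate numbers. Detection p-values and slides, planned as a filter and a block, were not run, since the files hold neither.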
